A study of Mus musculus with 6 samples.

Results

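Adipsin (Cfd), carbonic anhydrase 3 (Car3) and the adipocyte-type genes Fabp4, Adipoq, Plin1, Retn and Lep were followed in mouse liver. These 7 genes were taken by symbol from a table of 24034 genes. Rows were found for 5 of them, and Retn and Lep were not analysed here. Only Cfd, Car3 and Fabp4 had a mean of 0.5 FPKM or more, the level at which 13250 genes entered the test across all genes. FPKM is a read abundance corrected for how long the transcript is and how deeply the library was sequenced. The genes were chosen by their FPKM values in these same mutant and wild type libraries, so those levels are described with no test of their own.

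White adipocytes store triglyceride and secrete hormones called adipokines. Adipsin is complement factor D, a serine protease that cleaves factor B and so starts the amplification of the alternative complement pathway. Adiponectin (Adipoq), leptin (Lep) and resistin (Retn) are secreted adipokines, perilipin 1 (Plin1) coats the adipocyte lipid droplet, and FABP4 carries fatty acids in the cytosol of adipocytes, macrophages and capillary endothelium. CAR3 is a cytosolic carbonic anhydrase found at high levels in fat, slow muscle and the hepatocytes of rodents. Adipocytes express their genes under the nuclear receptor PPAR gamma, and several of these genes are also switched on in hepatocytes when the liver accumulates fat.

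RNA came from livers of C57BL/6 mice aged 25 weeks, with 3 libraries from wild type animals (WT, genotype lncenc1wt/wt) and 3 from mutants (HO, genotype lncenc13A/3A). The mutants carry the same altered allele on both copies of Lncenc1, a long non-coding RNA gene, and the series describes them as knockouts. RNA of Lncenc1 itself was not analysed here, so the genotype labels behind every HO against WT value were not checked on the targeted gene. What the allele changes, the substrain of either group and the sex are not given in the labels, and a difference of background cannot be told apart from the mutation. Whether each library stands for its own mouse is not stated, so p-values measure only the spread between these libraries. The FPKM values summed to 495570 to 518218 per library, and relative depth read from the spacing of low values was 19100000 to 24600000 read equivalents. The hepatocyte markers matched the labelled tissue in all 6 libraries: albumin (Alb) had 25339 to 33315 FPKM and the retinol and thyroxine carrier Ttr 3442 to 5668 FPKM. Over all tested genes the median log2 difference was -0.09, and 64.6% of genes were lower in HO. Median-of-ratios scaling moved that median to 0.01 and turned the split of called genes from 43 higher and 108 lower to 70 higher and 64 lower.

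The sequences around the start sites of Cfd, Adipoq and Plin1 are shown because all 3 genes mark adipocytes, while only Cfd was above 0 in these livers. Windows of 300 bases, from 250 before to 50 after the annotated start, came from RefSeq on GRCm38.p6, where 5 of the 7 genes had one. Capitals mark motif matches on either strand, and the sequence is given 5′ to 3′ on the strand of the gene. The Cfd window is chr10:79890603-79890902 on the plus strand, that of Adipoq is chr16:23146286-23146585 on the plus strand, and that of Plin1 is chr7:79732727-79733026 on the minus strand.
Cfd: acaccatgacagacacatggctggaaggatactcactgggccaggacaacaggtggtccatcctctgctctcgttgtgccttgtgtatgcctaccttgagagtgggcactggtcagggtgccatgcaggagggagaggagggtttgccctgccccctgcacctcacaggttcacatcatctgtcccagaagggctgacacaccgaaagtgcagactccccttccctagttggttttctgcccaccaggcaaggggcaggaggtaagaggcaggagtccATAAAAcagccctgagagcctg
Adipoq: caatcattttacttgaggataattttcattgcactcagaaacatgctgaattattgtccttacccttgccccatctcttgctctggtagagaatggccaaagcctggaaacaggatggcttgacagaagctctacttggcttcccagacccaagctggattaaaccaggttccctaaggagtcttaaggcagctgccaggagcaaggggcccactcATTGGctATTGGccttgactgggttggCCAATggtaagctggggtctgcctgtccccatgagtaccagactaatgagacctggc
Plin1: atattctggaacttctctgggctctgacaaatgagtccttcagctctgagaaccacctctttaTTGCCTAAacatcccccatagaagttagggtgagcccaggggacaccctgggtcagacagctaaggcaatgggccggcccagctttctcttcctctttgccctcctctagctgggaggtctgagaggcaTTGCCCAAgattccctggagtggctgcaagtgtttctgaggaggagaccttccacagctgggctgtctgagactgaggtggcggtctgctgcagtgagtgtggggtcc
The motifs searched were the PPAR-type direct repeat AGGTCANAGGTCA, its half-site AGGTCA, the C/EBP-type TTGCNNAA, the CCAAT box and the TATA-like ATAAAA. A match to AGGTCA lies inside every match to the direct repeat. Neither of these was found in any of the 3 windows. Of all 32851 RefSeq windows of this length, 0.0396% held the direct repeat and 16.3% the half-site, so absence from 3 windows is common. Plin1 held 2 matches to TTGCNNAA, a motif seen in 10.8% of all windows. Adipoq held 3 CCAAT boxes, of which 2 were on the opposite strand, and 37.4% of all windows held at least 1. Cfd held neither of those motifs and 1 match to ATAAAA, 28 bases after the annotated start, as did 18.5% of all windows at some position. The windows of the 3 genes thus shared none of the 5 motifs, which were chosen with the sequences in view, and nothing is read from this.

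Cfd was lower in every HO library than in any WT library. In mm10 the gene spans 79890853 to 79892655 of chromosome 10, plus strand, and no other annotated gene overlaps its exons. In WT it was at 49.5, 56.2 and 44.0 FPKM in replicates 1, 2 and 3. In HO it was at 4.42, 0.986 and 12.2 FPKM. The WT values lay within 1.28-fold of each other, while the HO values spanned 12.4-fold, with replicate 2 lowest and replicate 3 highest. The lowest WT value was 3.61 times the highest HO value. Means were 49.9 ± 6.13 (SD, n = 3) and 5.86 ± 5.74 FPKM, a ratio of 8.51, and the log2 difference on the log2(FPKM + 0.5) scale was -3.47 ± 0.68 (SE). Its size rested on single HO libraries: it was -2.67 without HO replicate 2 and -4.21 without HO replicate 3. In rank among all genes, Cfd stood at positions 1092 to 1355 in WT and at 7214, 11372 and 3799 in HO replicates 1, 2 and 3. In bulk tissue, fewer cells that express a gene and less of its RNA per cell cannot be told apart, here and for the genes below.

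Car3 was one of the most abundant transcripts of the liver in both genotypes. It spans 14863512 to 14872523 of chromosome 3, plus strand. It had 2853, 2964 and 1934 FPKM in WT replicates 1, 2 and 3, and 1970, 1690 and 1519 FPKM in the HO libraries. WT replicate 3 lay just below HO replicate 1, so the groups overlapped. Means were 2584 ± 565.7 and 1726 ± 227.5 FPKM (SD, n = 3), a ratio of 1.50, and the log2 difference was -0.56 ± 0.19 (SE). It was -0.45 with median-of-ratios scaling and -0.76 without WT replicate 3. Car3 ranked 18 to 34 among all genes in WT and 36 to 44 in HO. Set against albumin in the same library, there were 59.2 to 91.4 FPKM of Car3 per 1000 FPKM of Alb in WT and 52.3 to 77.7 in HO, ranges that overlap. Alb itself was lower in every HO library, at 25339.4 to 29602.5 FPKM against 31203.4 to 33315.3 FPKM in WT. The ratio to Alb therefore lessens the difference of Car3.

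Fabp4 was present at a modest level, and its groups differed by less than the spread between libraries. It spans 10204088 to 10208576 of chromosome 3, minus strand. Annotated exons of Fabp4 together cover that whole span of 4489 bases, and the length behind its FPKM is not given. The level of Fabp4 against other genes is therefore uncertain. Its levels were 11.6, 8.46 and 8.40 FPKM in WT and 14.1, 8.23 and 8.28 FPKM in HO replicates 1, 2 and 3. Replicate 1 was the highest library in each group, and the other 4 libraries lay between 8.23 and 8.46 FPKM. The mean was 9.48 ± 1.81 in WT and 10.2 ± 3.40 FPKM in HO (SD, n = 3), with a log2 difference of 0.07 ± 0.23 (SE) that turned to -0.17 without HO replicate 1. The 2 libraries with the higher Fabp4 were also the shallowest of their groups, at 19100000 and 19900000 read equivalents, and the part of depth was not tested.

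**Figure D1:**
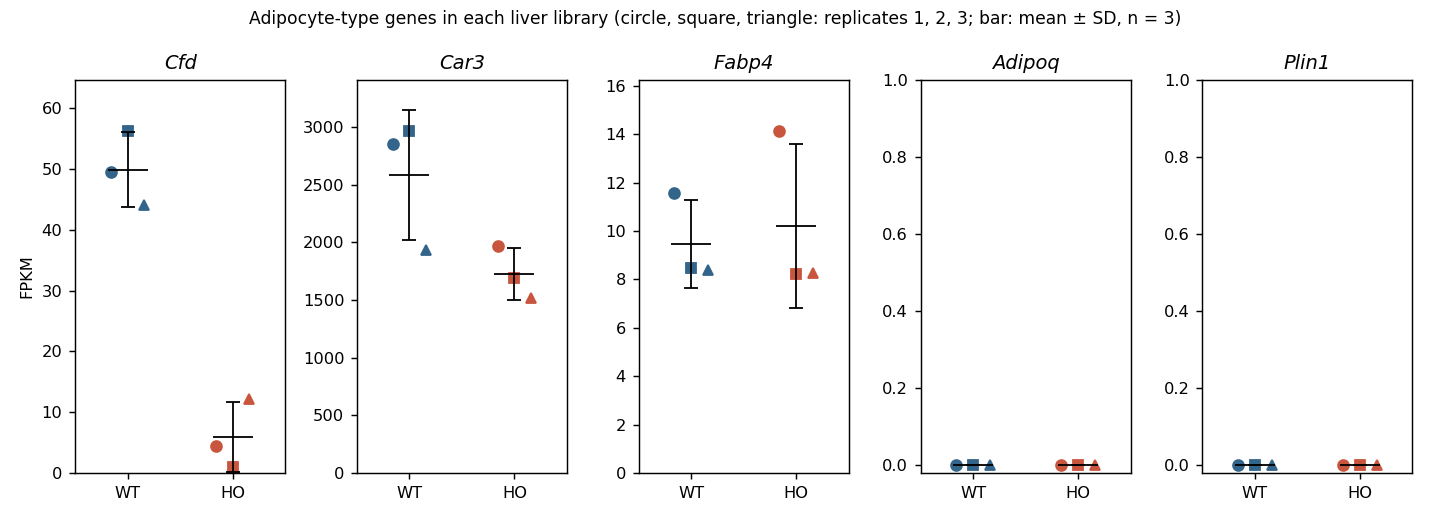
FPKM (y axis, starting at 0 for the expressed genes) of the 5 genes with a row, by genotype (x axis). Each point is 1 library, with replicates 1, 2 and 3 as circle, square and triangle, and bars give the mean ± SD. Cfd separates the groups, Car3 and Fabp4 overlap, and Adipoq and Plin1 are at 0 in all 6 libraries.

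Adipoq and Plin1, which define adipocytes, were listed at 0 in all 6 libraries. Adipoq spans 23146536 to 23158028 of chromosome 16, plus strand, and Plin1 79720218 to 79732903 of chromosome 7, minus strand. At the depths read from the table, 1 read would be worth 0.0294 to 0.0379 FPKM for Adipoq and 0.00874 to 0.0113 FPKM for Plin1. Of the 24034 genes, 1317 were listed at 0 in all 6 libraries. Of 75 ribosomal protein genes only 2, Rpl39l and Rpl3l, were at 0 in any library. Those genes cannot show how a low or single gene is estimated. Whether a listed 0 is absent RNA or a lost estimate was not tested. None of the 3 genes that entered the test across all genes was among the 151 past its threshold (limma, adjusted p under 0.05), a share of 1.14% of tested genes, with 0.325% higher and 0.815% lower in HO. At an unadjusted p under 0.05 the share of all tested genes was 21.5%. The groups did not overlap for 1 of the 3, Cfd, which was lower in HO. Among all tested genes they did not overlap for 27.9%, with 21.4% lower and 6.42% higher in HO. Nothing is read from these counts, since the same values chose the genes.

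Other white adipocyte markers differed widely in level. Of the markers listed, 11 had a row and 6 were tested. Adig, a regulator of adipocyte differentiation, was listed at 0 in all 6 libraries. Trarg1, a protein of insulin-responsive vesicles in fat, was at 0.0948 to 0.165 FPKM. Sncg was at 0 in 5 libraries and 0.184 FPKM in WT replicate 1. Acvr1c was at 0.00995 to 0.0229 FPKM in WT and 0 in HO, and Aqp7 at 0.0719 to 0.165 and 0 to 0.035 FPKM. All of these levels were too low to be tested. The list summed to 90.9 to 97.9 FPKM in WT and 60.6 to 69.0 FPKM in HO, ranges that do not overlap. Most of that sum came from Mrap and Cidec. Sums of the brown adipocyte, adipose stromal, endothelial and hepatocyte markers were also lower in every HO library than in any WT library. Mrap, an accessory protein of melanocortin receptors, was at 38.8 ± 3.70 in WT and 28.0 ± 2.82 FPKM in HO (limma adjusted p = 0.0894). Cidec, a lipid droplet fusion protein of fat and of fatty liver, was at 32.0 ± 3.86 and 16.4 ± 5.99 FPKM (limma adjusted p = 0.0998). Of the 6 tested, 4 were negative and 2 positive, against 64.6% negative over all genes. The positive genes, named after their values were seen, were the adrenergic receptor gene Adrb3, at 7.14 ± 1.40 in WT and 8.04 ± 0.854 FPKM in HO, and the hormone-sensitive lipase gene Lipe, at 6.78 ± 0.998 and 7.54 ± 0.906 FPKM (limma adjusted p = 0.575 and 0.593). Both overlap an opposite-strand gene. No gene of this list passed the limma threshold in either direction, 2 had an unadjusted p under 0.05, and its median log2 difference was -0.37 against -0.09 for all genes. Of the 6 brown fat markers 4 had a row, and Ucp1 and Dio2 were not analysed here. Zic1 and Cox8b were listed at 0. Cidea and Cox7a1 had every HO value below every WT value, against 21.4% of all tested genes. The 2 brown fat genes tested had unadjusted p under 0.05, against 21.5% of all tested genes, and did not pass the limma threshold. The part of fat cells in the values of Cfd was not tested.

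**Figure D2:**
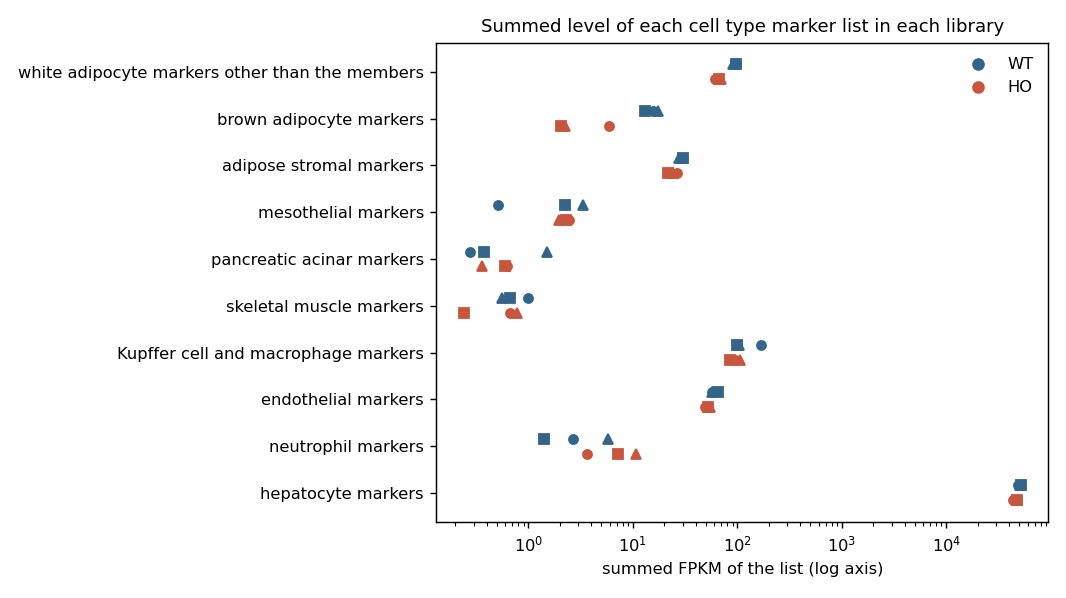
Summed FPKM of each marker list (x axis, log scale) in each library, with 1 point per library and WT above HO in each row. White and brown adipocyte sums, carried by genes such as Mrap, Cidec and Cidea, are lower in HO. The adipose stromal, endothelial and hepatocyte sums are also lower in every HO library than in any WT library. The hepatocyte sum is far above all others in every library.

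The ratios of Cfd to Car3 and to Fabp4 varied more across libraries than the ratio of Fabp4 to Car3. Per 1000 FPKM of Car3 there were 17.3, 19.0 and 22.8 FPKM of Cfd in WT and 2.24, 0.584 and 8.02 FPKM in HO, a 39.0-fold range over the 6 libraries. Cfd held 4.28 to 6.65 FPKM per FPKM of Fabp4 in WT and 0.120 to 1.47 in HO, a 55.5-fold range. The ratio of Fabp4 to Car3 was steadier, at 2.85 to 7.18 FPKM of Fabp4 per 1000 FPKM of Car3, a 2.52-fold range. Within the groups, deviations from the group mean had a Pearson r of -0.08 between Cfd and Car3, 0.07 between Cfd and Fabp4 and 0.58 between Car3 and Fabp4. These are descriptions over 6 libraries, which share library and depth. The ranges of the ratios with Cfd largely restate the values of Cfd itself, which chose the gene. Car3 and Fabp4 are also expressed outside adipocytes, and the cell source of Cfd was not tested.

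In FPKM, Cfd in WT and Car3 in both groups were far above their neighbours on the chromosome, while Fabp4 was not. For Fabp4 this depends on the length used, which is not given. Cfd sits beside genes of other serine proteases, the neutrophil enzymes Prtn3 and Elane, which end 7.7 and 2.6 kb before it. Prtn3 was at 0.942 ± 0.879 in WT and 1.92 ± 1.40 FPKM in HO, and Elane at 0.150 ± 0.191 and 0.208 ± 0.0853 FPKM, so neither reached the WT level of Cfd. Prtn3 overlaps the opposite-strand gene Plppr3. The Mediator subunit Med16, 2.1 kb on the other side, was at 6.72 ± 0.796 and 5.37 ± 0.744 FPKM (limma adjusted p = 0.269). Car3 lies in a cluster of carbonic anhydrase genes. Car13 stayed at or under 0.262 FPKM, Car1, the red cell enzyme, was at 2.63 ± 0.841 and 2.96 ± 1.23 FPKM, and Car2 was at 2.64 ± 0.399 and 1.53 ± 0.420 FPKM (limma adjusted p = 0.842 for Car1 and 0.123 for Car2). Around Fabp4 lie Fabp5, an epidermal and macrophage fatty acid binding protein, and Fabp12. Fabp5 was at 2.39, 2.70 and 16.5 FPKM in WT and 12.3, 16.0 and 16.9 FPKM in HO, where WT replicate 3 lay with the HO libraries (limma adjusted p = 0.227). Without WT replicate 3 it passed as higher, with a log2 difference of 2.35 against 1.52 with all libraries (adjusted p = 0.00764). Fabp12 was listed at 0 in 5 libraries.

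**Figure D3:**
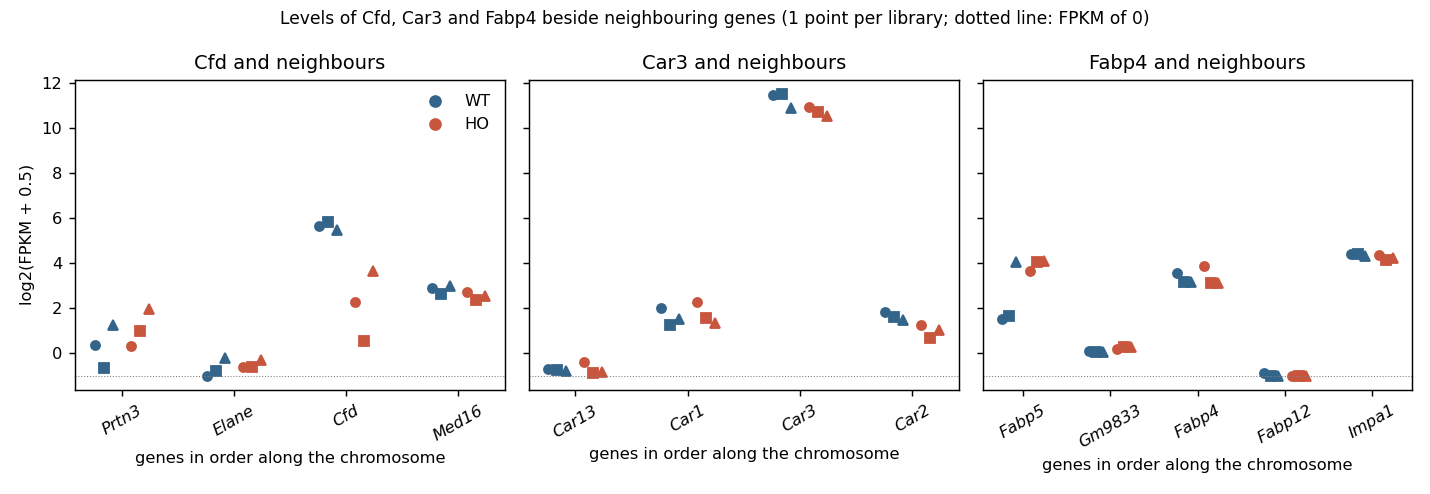
log2(FPKM + 0.5) (y axis) of Cfd, Car3 and Fabp4 and of neighbouring genes in their order along the chromosome (x axis), with 1 point per library and the dotted line at an FPKM of 0. Cfd and Car3 lie above the neighbours shown in all WT libraries, and the WT values of Cfd lie above its HO values.

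Most PPAR gamma targets known from fatty liver had lower values in HO, 2 of them past the threshold. Of 11 targets listed, 10 were tested, 2 fell (Cd36 and Vldlr) and none rose. The list's median log2 difference was -1.01 against -0.09 for all genes, 9 of 10 were negative against 64.6% of all genes, and 7 of 10 had every HO value below every WT value, against 21.4% of all tested genes. The list was chosen with results for several of its genes known, so its direction is no independent evidence. Cd36, which takes up fatty acids, had 48.9 ± 2.86 FPKM in WT and 19.5 ± 1.78 FPKM in HO (log2 difference -1.31 ± 0.10 SE, limma adjusted p = 0.0109) and passed under each of the 12 alternatives tried. Vldlr, a lipoprotein receptor, went from 1.05 ± 0.183 to 0.267 ± 0.0743 FPKM (limma adjusted p = 0.0484). It lost its call with each single library left out other than WT replicate 3, where the adjusted p ran from 0.0542 to 0.177, and also with median-of-ratios scaling (0.0578), a pseudocount of 0.1 (0.0534), no filter (0.0955) and the replicate block (0.0990).

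Cidea, like Cfd, had every HO value below every WT value, but the ratio of the 2 genes was not constant. This lipid droplet protein of brown fat and of fatty hepatocytes was at 12.4, 10.1 and 12.8 FPKM in WT and at 3.95, 0.108 and 1.11 FPKM in HO replicates 1, 2 and 3. The groups did not overlap, HO replicate 2 was lowest for both genes, and HO replicate 1 was highest for Cidea where HO replicate 3 was highest for Cfd. Cidea per FPKM of Cfd ran from 0.0912 to 0.895 over the 6 libraries, a 9.82-fold range, and the deviations of the 2 genes from their group means had an r of 0.53. The log2 difference of Cidea was -2.90 ± 0.63 (SE, limma adjusted p = 0.0765), and it passed as lower without HO replicate 1 (adjusted p = 0.031). Pparg itself was at 8.58, 7.19 and 5.52 FPKM in WT and 3.20, 2.66 and 4.68 FPKM in HO, with every HO value below the WT values (limma adjusted p = 0.0893). Its coactivator Ppargc1a was at 1.50 ± 0.264 and 1.03 ± 0.0884 FPKM (limma adjusted p = 0.209). Of the 8 tested adipogenic transcription factors none rose or fell by limma, and their median was -0.18 against -0.09 for all genes. An unadjusted p under 0.05 was held by 2 of them, against 21.5% of all tested genes.

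Of 15 tested perilipins, lipid droplet proteins and lipases, none passed the limma threshold in either direction and 8 had an unadjusted p under 0.05. In this list 12 were negative and the median log2 difference was -0.44. Over all tested genes 21.5% had an unadjusted p under 0.05, 64.6% were negative and the median was -0.09. The same shares stand beside the carbonic anhydrases and fatty acid binding proteins below. Cidea, Cidec, Plin2, Plin4 and Lpl are also among the PPAR gamma targets above. Cidec, Plin4 and Lipe are also white adipocyte markers and Cidea a brown one, so the lists are not separate counts. Fitm1, a protein of droplet budding, had the smallest p, at 68.5 ± 8.92 in WT and 34.9 ± 8.22 FPKM in HO (log2 difference -0.98 ± 0.19 SE, limma adjusted p = 0.0590), and it passed as lower without HO replicate 1 (adjusted p = 0.0495). Reads of Fitm1 and the antisense gene Gm15932, which overlaps it, cannot be told apart, since strand use in the authors' counting is not given. None of 7 tested carbonic anhydrases other than Car3 rose or fell by limma, 4 had an unadjusted p under 0.05, and the median was -0.39. Car5a, the mitochondrial enzyme of hepatocytes, was at 59.2 ± 4.21 and 42.3 ± 8.53 FPKM (limma adjusted p = 0.136). Its exons overlap the opposite-strand gene BC048644. Of 4 tested fatty acid binding proteins other than Fabp4, none rose or fell by limma and 3 had an unadjusted p under 0.05. The liver form Fabp1 was at 7227 ± 383.8 and 5150 ± 275.9 FPKM and the intestinal form Fabp2 at 143.3 ± 10.3 and 82.2 ± 19.0 FPKM (limma adjusted p = 0.0749 and 0.0637). Fabp5, the third of these 3, had higher values in HO, as given above, and it made the 1 call of this list without WT replicate 3.

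**Figure D4:**
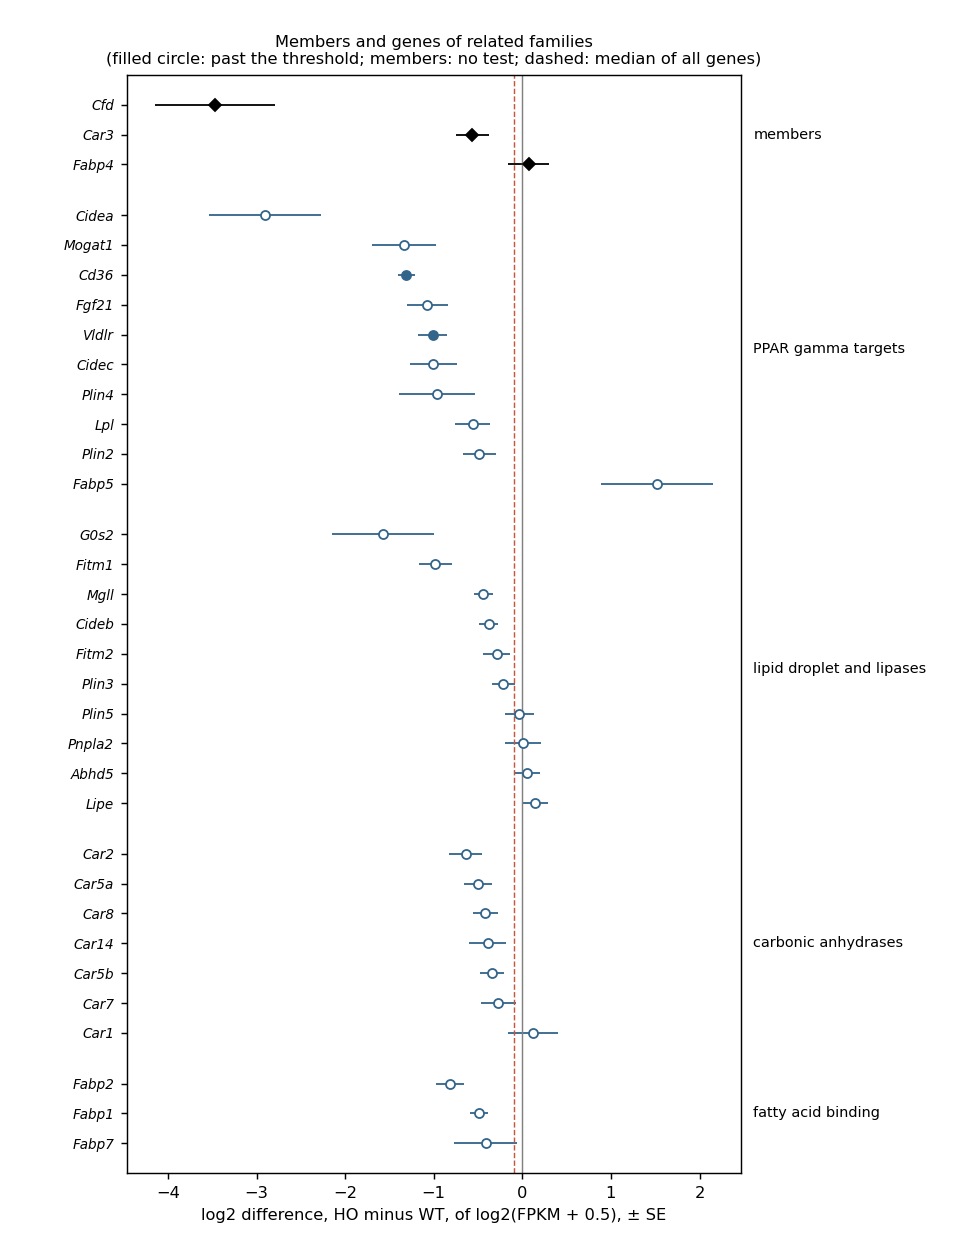
log2 difference of log2(FPKM + 0.5), HO minus WT, with its SE (x axis), for Cfd, Car3 and Fabp4 (diamonds, no test) and the tested genes of 4 related lists, each gene shown once (circles, filled where the limma adjusted p is under 0.05). Cfd lies at -3.47 and Cidea at -2.90, only Cd36 and Vldlr are filled, and the dashed line marks the median of all genes at -0.09.

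Most genes listed for the alternative complement pathway, with its regulators and receptors, had slightly higher values in HO, none past the threshold. Of 9 tested genes none rose or fell by limma, 1 had an unadjusted p under 0.05, 6 were positive and the median log2 difference was 0.11. The groups overlapped for 8 of the 9, and the 1 other was lower in every HO library. Over all tested genes 21.5% had an unadjusted p under 0.05 and 21.4% were lower in every HO library. C3, the central complement protein, was at 1011 ± 114.1 in WT and 1361 ± 246.9 FPKM in HO (limma adjusted p = 0.187). Cfb, the substrate of adipsin, named here after its values were seen, was at 343.3 ± 36.9 and 406.4 ± 58.7 FPKM (limma adjusted p = 0.347). It shares exonic sequence with the annotated gene Gm20547 on the same strand, so its reads are uncertain. Among 6 tested receptors and binding proteins of adiponectin, leptin and resistin none rose or fell by limma, 1 had an unadjusted p under 0.05, and the median was -0.03. The adiponectin receptor Adipor2 was at 163.9 ± 10.4 and 143.1 ± 5.79 FPKM (limma adjusted p = 0.237). Cdh13, a cadherin that binds adiponectin, was at 1.04 ± 0.382 and 0.310 ± 0.0374 FPKM (limma adjusted p = 0.0868), and it passed as lower without WT replicate 3 (adjusted p = 0.0406).

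Marker lists of other cells were summed in each library. Skeletal muscle had rows for 2 of 6 markers: Myh4 was listed at 0 and Mylpf had 0.243 to 0.985 FPKM. Neither is a marker of slow muscle, where Car3 is abundant, and the part of muscle in the values of Car3 was not tested. The 8 Kupffer cell and macrophage markers, none at 0, summed to 99.2 to 168.7 FPKM in WT and 84.4 to 106.0 FPKM in HO, with WT replicate 1 the highest. The 9 endothelial markers summed to 56.6 to 65.3 and 48.9 to 54.1 FPKM. None of the 8 tested macrophage genes or the 7 tested endothelial genes passed the limma threshold. Of them 2 and 1 had an unadjusted p under 0.05, against 21.5% of all tested genes. All 8 and all 7 were negative, against 64.6% of all genes. Their median log2 differences were -0.35 and -0.18, against -0.09 for all genes. For Fabp4, which both cell types express, the part of these cells was not tested. Adipose stromal markers summed to 27.7 to 30.4 FPKM in WT and 21.8 to 26.5 FPKM in HO, mesothelial markers to 0.512 to 3.36 and 1.95 to 2.46 FPKM, and pancreatic acinar markers, with rows for 2 of 6, to 0.274 to 1.52 and 0.362 to 0.629 FPKM. No tested gene of these 3 lists or of the muscle list passed the limma threshold, and 0 had an unadjusted p under 0.05. The 8 neutrophil markers summed to 1.40 to 5.83 FPKM in WT and 3.62 to 10.6 FPKM in HO, with Camp and Ly6g listed at 0. S100a9, a calcium-binding protein of neutrophils, was at 1.05 ± 0.644 and 3.16 ± 0.660 FPKM (limma adjusted p = 0.0828), and it passed as higher without WT replicate 3 (adjusted p = 0.0343). Of 8 hepatocyte markers 1 rose, the urea cycle enzyme Cps1, from 399.0 ± 41.3 to 729.1 ± 111.3 FPKM (limma adjusted p = 0.0422). Its call was lost when either of WT replicates 1 and 2, or of HO replicates 2 and 3, was left out (adjusted p of 0.085 to 0.164), with no filter (0.115) and with the replicate block (0.0571). The sum of the hepatocyte markers was 48609 to 51534 FPKM in WT and 43266 to 47366 FPKM in HO.

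The genes whose levels followed Cfd most closely over the 6 libraries were the non-coding Gm16153, the peroxisomal import receptor Pex5, the histamine methyltransferase Hnmt, the corticosteroid-binding globulin gene Serpina6 and Tenm3. Their Pearson r on the log2 scale was 0.990 to 0.997, and 622 of 13247 genes reached 0.9 or more. Serpina6 was at 140.0 ± 5.06 in WT and 72.6 ± 17.2 FPKM in HO (limma adjusted p = 0.0526). By deviations from the group means the 5 closest to Cfd were Bicdl1, Atr, Pde4dip, Ints13 and again Gm16153, with r of 0.993 to 0.995. The genes closest to Car3 over the 6 libraries were Pam16, the lincRNA Gm36041, Lsm11, Abhd3 and Larp1b, with r of 0.995 to 0.996, and 651 genes reached 0.9. By deviations from the group means they were Gm20721, the phospholipase gene Pla2g12b, the P450 gene Cyp2c50, Lsm11 and Gm36041. None of the genes in these 4 groups passed the threshold, and the groups for Cfd and for Car3 shared no gene.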

How the data were processed

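The authors deposited 1 table of FPKM values for 6 liver libraries, made from Trizol RNA with a directional kit, per the labels' protocols. HISAT2, HTSeq, DESeq2, StringTie and build mm10 are named in the submitters' processing notes, without versions, and which made the FPKM or whether strand was used is not stated. Columns were matched to samples by group and replicate number. Positions and exonic lengths came from GENCODE mouse release 21, which held all 24034 identifiers. Low values were whole multiples of a read step for 32.5% to 34.7% of values (tolerance 0.02 reads), so counts were not recovered; genes near 0.5 FPKM are imprecise. FPKM is relative, so abundant genes shift the rest.

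Genes averaging at least 0.5 FPKM were fitted as log2(FPKM + 0.5) with limma 3.58.1 (R 4.3.3), eBayes with a mean-variance trend, all 6 libraries, no block, two-sided, Benjamini-Hochberg at 0.05; folds of low genes are understated. The fit was tested on simulated data. No set test was run. Python 3.11.15, numpy 2.4.6, pandas 2.3.3 and matplotlib 3.10.9 handled tables and figures. The genes, lists and tests were chosen with earlier results of these data known, and the motifs with the sequences in view. Named are all 7 genes, list genes past the threshold or else up to 2 with the smallest p per list, up to 3 markers per cell type list, cluster neighbours, and the 5 genes most like Cfd and Car3. A gene that this rule names is not reported. Alternatives tried were pseudocounts of 1 and 0.1, no filter, a filter at 1 FPKM, median-of-ratios scaling, the replicate block and leaving out each library.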

Additional observations from a re-analysis of the deposited data

How the results depend on the processing

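Over the 12 alternatives the difference of Cfd ran from -4.21 to -2.67 on the log2 scale. That of Car3 ran from -0.76 to -0.45, and that of Fabp4 from -0.17 to 0.22. The filter settings and the replicate block leave these differences unchanged by design. With 3 libraries a group, leaving 1 out can move them only within their spread, so the ranges are no test of stability. The count of changed genes, 151, was 100 with a pseudocount of 0.1, 24 with no filter, 25 with the replicate block and between 6 (without WT replicate 2) and 262 (without WT replicate 3) when 1 library was left out. The list genes that passed, 3, numbered 1 with no filter, 1 with the replicate block and 1 to 7 with a library left out. Same-numbered libraries had deviations correlated at 0.066, -0.028 and 0.015, so the replicate numbers were not taken as pairs, and not every library correlated best with its own number. Of 37 named genes outside the set, 32 kept their sign throughout. With 1 library left out, Upk3b ran from -0.05 to 0.56, Msln from -0.16 to 0.64, Cela2a from -0.38 to 0.31, Mylpf from -0.39 to 0.01 and Car1 from -0.15 to 0.32, and none of these 5 passed. The cause of these shifts was not tested. At 3 libraries a group and FPKM without counts, levels near 0 cannot be given intervals.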

Other observations

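Fabp4 was highest in replicate 1 of both groups, and the genes closest to it over the 6 libraries, listed after its values were seen, were Zgpat, Tmed10-ps, Rpl17, Serpinb9 and Ift52, with r of 0.968 to 0.989. Rpl17, a ribosomal protein gene, was at 69.5, 48.3 and 45.2 FPKM in WT and 81.4, 41.6 and 40.1 FPKM in HO replicates 1, 2 and 3, so it too was highest in replicate 1 of each group. Over the 6 libraries 59 of 13247 genes reached an r of 0.9 with Fabp4, 622 with Cfd and 651 with Car3. By deviations from the group means the order turned, with 386 genes for Fabp4, 384 for Car3 and 212 for Cfd.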
